A study of Mus musculus with 12 samples.

Results

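Neuronal genes and targets of the repressor REST were followed in RNA-Seq of murine jejunal enteroids, which are three-dimensional cultures of intestinal epithelium grown from crypts. The set held 42 genes, chosen by name for their known place in neurons or as REST targets and with Rest itself among them. The choice was made with earlier results of these data known. Of the 42 genes, 35 had a row in at least 1 of the tables, out of 18929 genes listed there. The other 7 genes, Stmn2, Stmn3, Gap43, Gdap1, Gria2, Syt4 and Uchl1, have no row in the tables used here. The tables list a gene where its 8 libraries sum to 10 counts or more.

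REST binds a DNA element called RE1 and recruits corepressors, among them the CoREST complex, which carries the histone deacetylases HDAC1 and HDAC2 together with the lysine demethylase KDM1A. In cells other than neurons REST holds down genes for vesicle release, secretory granule cargo, ion channels and the neuronal cytoskeleton. Enteroendocrine cells, the hormone cells of the gut epithelium, store peptides in the same kind of granule and normally express part of this set.

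The 3 groups were control enteroids carrying the villin-Cre transgene, Hdac1-deficient enteroids and Hdac2-deficient enteroids, with 4 libraries each. The mutants came from mice with floxed Hdac1 or Hdac2 and villin-Cre, which acts in the intestinal epithelium, in a mixed C57BL/6J, 129SV and CD1 background. All cultures were grown for 5 days in ENR medium, and the age of the mice is not given in the sources used here. According to the methods, crypts came from 1 mouse per genotype, and nothing says that the 4 libraries of a group are separate mice. The p-values therefore measure the spread between these libraries, which may be technical, and genotype cannot be told apart from mouse or culture line.

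The targeted genes checked the labels. Levels are given in CPM, counts scaled to the library total. Hdac1 stood at 90.5 CPM in control enteroids, against 4.23 CPM in its own mutant and 75.3 CPM in the other. Hdac2 stood at 137 CPM in control, 112 CPM in the Hdac1 mutant and 75.9 CPM in its own mutant, a fall of less than 2-fold. Depth lay between 20693200 and 30658628 counts per library. The group medians were 29104951 for control, 28662159 for Hdac1-deficient and 24595010.5 for Hdac2-deficient libraries. Intestinal epithelial markers were present throughout, all 18 of 18 with a row. Xist, the RNA that coats an inactive X chromosome, ranged from 1.41 to 1.72 CPM in control libraries. It ranged from 776 to 1078 CPM in Hdac1-deficient and from 494 to 677 CPM in Hdac2-deficient libraries. Whether this difference goes with the deletions or with the mice cannot be told apart. The Y-linked genes Ddx3y, Eif2s3y, Kdm5d and Uty have no row in the tables used here. Genes of chromosome 19 had a median log2 fold change of -0.52 (Hdac1-deficient) and -0.51 (Hdac2-deficient) against control, with 0.01 in each for genes outside chromosomes 19 and X. The median of X-linked genes was -0.03 in Hdac1-deficient (432 genes) and -0.07 in Hdac2-deficient enteroids (426 genes).

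Few of the neuronal genes changed by more than 2-fold. The 8 called against control in either mutant were the granule cargo genes Scg2, Scg3 and Scg5, and Nrn1, Bex1, Unc13a, Map2 and Celf4. A gene was called when its edgeR adjusted p was at most 0.05 and its change over 2-fold. In Hdac1-deficient enteroids 5 of the 27 members tested were called higher (Nrn1, Scg2, Scg3, Scg5 and Bex1), where 6.87% of all tested genes were called higher. Unc13a alone among the members was called lower there, where 3.71% of all genes were. In Hdac2-deficient enteroids 5 of 25 were called higher (Nrn1, Scg2, Scg3, Map2 and Celf4), against 5.45% of all genes. No member was called lower there by edgeR or DESeq2, against 2.84% of all genes, and 6 were lower at an unadjusted p under 0.05. The members and the lists below were chosen with earlier results of these data known. Their shares beside those of all genes are therefore descriptions and not tests.

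Smaller changes were common in all genes, and the members' counts are to be read against that. Where the adjusted p was at most 0.05, whatever the size of the change, 13 of 27 members were higher in Hdac1-deficient enteroids and 4 were lower, where 32.7% of all genes were higher and 31.9% lower. In Hdac2-deficient enteroids 10 of 25 were higher and 6 lower, where 31.4% of all genes were higher and 30.9% lower. The median log2 fold change of the tested members was 0.28 in Hdac1-deficient enteroids and 0.19 in Hdac2-deficient ones, and the median of all tested genes was -0.00 in each. Both comparisons use the same 4 control libraries, so their values stand side by side and are not independent.

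**Figure D1:**
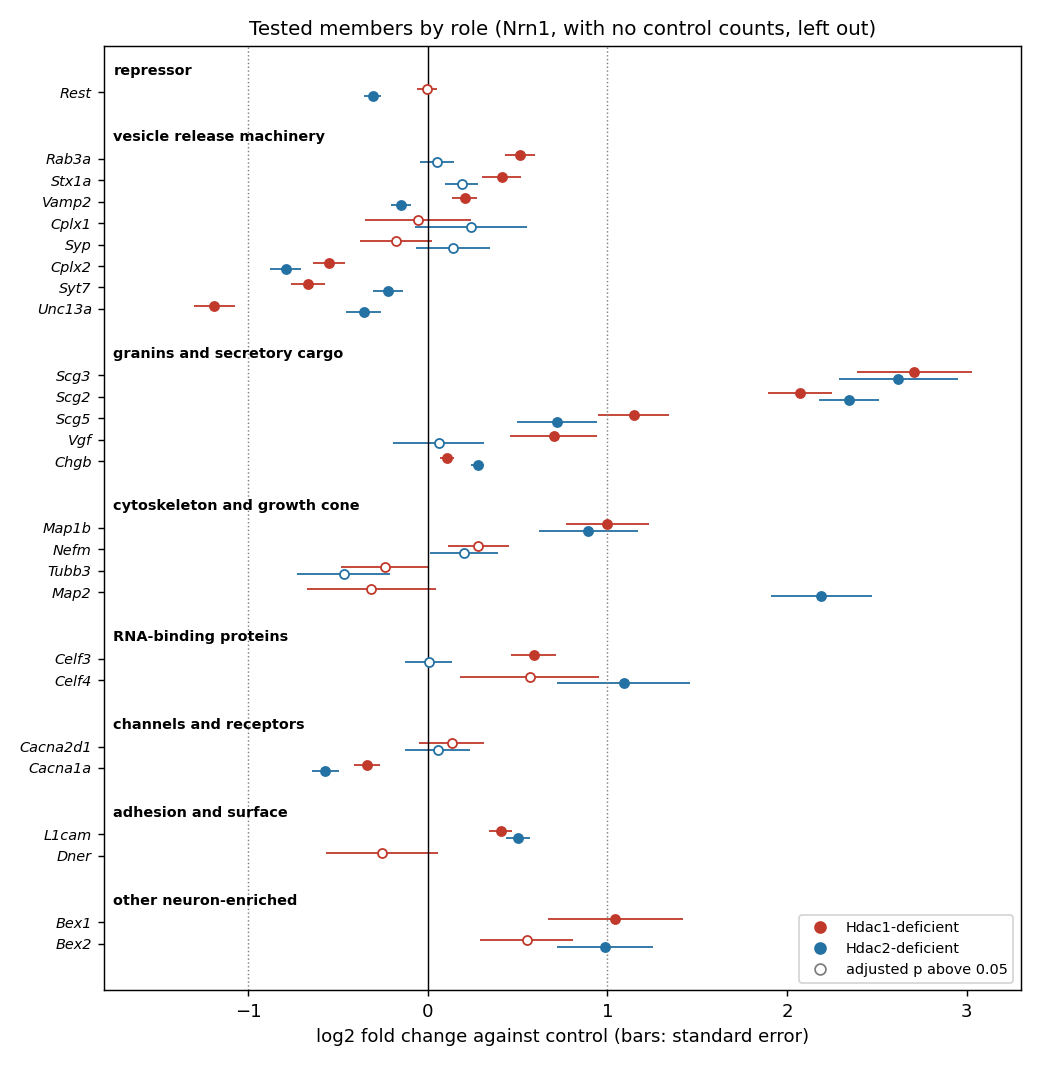
Log2 fold change against control (horizontal axis, bars give the standard error) for each tested member by role, red for Hdac1-deficient and blue for Hdac2-deficient enteroids, with open points where the adjusted p was above 0.05 and dotted lines at 2-fold. Scg3 and Scg2 lie beyond 2 in both mutants, Map2 lies at 2.19 in Hdac2-deficient enteroids alone, and Unc13a lies at -1.19 in Hdac1-deficient enteroids. Nrn1 is left out because it had no control counts.

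Rest, the repressor, was expressed in all libraries and was lower in Hdac2-deficient enteroids alone. In control libraries it stood at 33.0, 34.9, 37.0 and 33.5 CPM. In Hdac1-deficient libraries it stood at 37.7, 33.2, 35.3 and 30.7 CPM, a range that contains that of control. In Hdac2-deficient libraries it stood at 28.0, 27.1, 28.3 and 28.1 CPM, all below every control library. The log2 fold change of Rest was -0.00 (SE 0.06, adjusted p = 0.95) in Hdac1-deficient and -0.31 (SE 0.05, adjusted p = 9e-06) in Hdac2-deficient enteroids, and between the mutants it was higher by 0.30 (SE 0.05, adjusted p = 6.1e-05) in the Hdac1 mutant. Per kilobase of exon, Rest stood at 4.79 CPM in control, at the 59.8 percentile of 18823 genes.

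Among the genes of the REST and CoREST complex more passed the test as lower than as higher, mostly by small amounts. Of 26 genes on this list, Rest included, 25 were tested. In Hdac1-deficient enteroids 5 (20%) were higher and 11 (44%) lower at any size, beside 32.7% and 31.9% of all genes, and the deleted Hdac1 itself, at a log2 fold change of -4.40, was the 1 gene called lower. In Hdac2-deficient enteroids 2 (8%) were higher and 14 (56%) lower, beside 31.4% and 30.9% of all genes. The lower genes included Hdac1 and Hdac2 in both mutants. Rcor2, which encodes the CoREST family corepressor RCOR2, was the 1 gene called lower in Hdac2-deficient enteroids, at -1.02 (SE 0.05, adjusted p = 9.7e-14). Rcor2 had 59.0 ± 1.5 CPM (SD, n = 4) in control, fell to 28.9 ± 2.2 CPM there and to 33.4 ± 1.2 CPM in Hdac1-deficient enteroids, a change of -0.81. The call was lost without Hdac2-deficient replicate 2 or 3, at -0.99 in each case (adjusted p = 1.1e-11 and 4.3e-12). It lies on chromosome 19, whose genes had the low median given above.

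The other corepressor subunits changed by less than 2-fold. Rcor1, the main CoREST scaffold, changed by 0.15 in Hdac1-deficient (adjusted p = 0.0013) and 0.08 in Hdac2-deficient enteroids (adjusted p = 0.052). Kdm1a, the demethylase of the complex, fell by 0.10 and 0.16 on the log2 scale. Kdm5c, an X-linked histone demethylase, rose by 0.49 and 0.59, beside the difference in Xist between control and mutants, and the part of that difference was not tested. Srrm4, the splicing factor that makes the neuronal REST isoform, was near the floor in every group, at 0.05, 0.04 and 0.05 CPM, and was not tested.

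**Figure D2:**
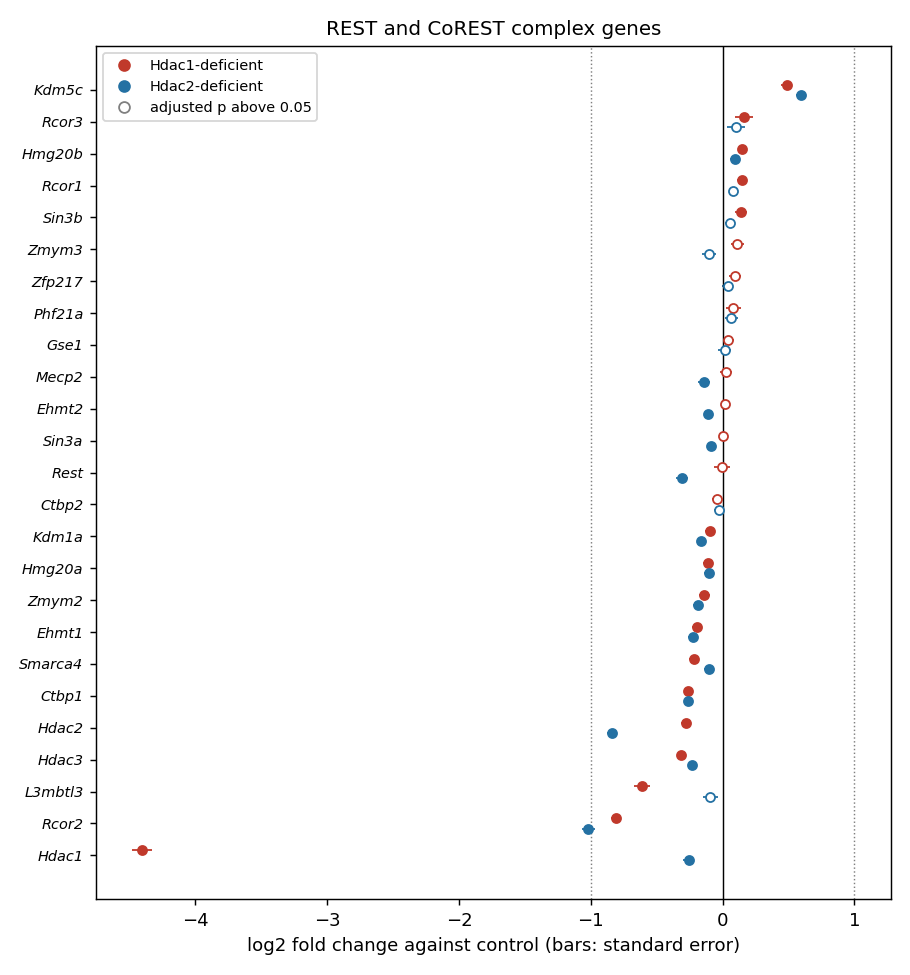
Log2 fold change against control (horizontal axis, bars give the standard error) for the 25 tested genes of the REST and CoREST list, red for Hdac1-deficient and blue for Hdac2-deficient enteroids, with open points where the adjusted p was above 0.05. Apart from Hdac1 in its own mutant, at -4.40, and Rcor2 in Hdac2-deficient enteroids, at -1.02, the points lie within 1 of zero change.

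The promoter sequence of 3 called members is shown because Scg2 and Unc13a were the members whose windows held both arms of the RE1 element on 1 strand at most 20 bases apart, and Scg3 was called in both mutants without either arm. The arms searched were CAGCACC on the left and GGACAG on the right, on both strands. Each line gives 100 bases before and 30 bases after a start site, 5′ to 3′ on the strand of the gene, from RefSeq on GRCm38.p6, and the capitals mark the arms, which lie on the opposite strand and so read as their reverse complement. Scg2 is chr1:79439997-79440126 on the minus strand, Scg3 is chr9:75684027-75684156 on the minus strand and Unc13a is chr8:71671728-71671857 on the minus strand.
Scg2: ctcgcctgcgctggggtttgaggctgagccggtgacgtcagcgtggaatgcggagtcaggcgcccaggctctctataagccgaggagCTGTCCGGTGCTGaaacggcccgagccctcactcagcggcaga
Scg3: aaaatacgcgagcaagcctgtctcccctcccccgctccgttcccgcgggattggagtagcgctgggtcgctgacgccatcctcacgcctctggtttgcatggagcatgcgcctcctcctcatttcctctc
Unc13a: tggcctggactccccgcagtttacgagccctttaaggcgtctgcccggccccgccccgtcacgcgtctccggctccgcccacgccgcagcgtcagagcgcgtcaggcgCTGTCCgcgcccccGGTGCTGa

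In Scg2 the arms stood with 0 bases between them, and in Unc13a with 8. Both arms in that order on 1 strand, 0 to 20 bases apart, were found in 2 of the 27 members with a window (7.41%) and in 40 of 27025 genes (0.148%). The left arm alone was found in 7 members (25.9%) and 8.14% of all genes, and the right arm in 9 members (33.3%) and 24.7% of all genes. The members with either arm numbered 12 (44.4%), beside 30.4% of all genes. The members had 39 windows for 27 genes and all genes 32851 windows for 27025, so the members had more sequence searched per gene. The 12 were Scg2, Unc13a, Chgb, Map2, Map1b, Tubb3, Ina, Dner, Celf3, Gria2, Syt1 and Syn1. The windows ran from 250 bases before to 50 bases after a start site. The 2 members with both arms changed in opposite directions, Scg2 higher and Unc13a lower, as given below. A match of letters is a description and not a binding site. Members were chosen in part as REST targets, so the shares of arms describe the set as chosen and are not a test of it. No entry was found for Cacna1a, Celf4, Gap43, Gdap1, Nefl, Nefm, Nrn1, Nrxn2, Rest, Snap25, Stmn2, Syt4, Syt7, Vamp2 and Vgf.

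Granins and other secretory cargo mostly rose. All 5 genes of this group were higher in Hdac1-deficient enteroids at any size, beside 32.7% of all genes, and 3 were called, beside 6.87%. In Hdac2-deficient enteroids 4 were higher, beside 31.4% of all genes, and 2 were called, beside 5.45%. Scg2 encodes secretogranin II, a granule matrix protein and precursor of secretoneurin, and lies on chromosome 1 (79434669 to 79440120, minus strand). In control libraries it stood at 0.737, 0.668, 0.793 and 0.798 CPM. In Hdac1-deficient libraries it stood at 3.34, 3.50, 3.35 and 2.33 CPM. In Hdac2-deficient libraries it stood at 3.98, 4.26, 3.01 and 3.82 CPM. Every mutant library was above every control library, and the mutants overlapped each other.

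The log2 fold change of Scg2 was 2.07 (SE 0.18, adjusted p = 3.7e-09) in Hdac1-deficient and 2.34 (SE 0.17, adjusted p = 1e-10) in Hdac2-deficient enteroids, or 4.21-fold and 5.08-fold. The difference between the mutants, -0.27 (SE 0.13), did not pass the test (adjusted p = 0.10). The lowest Hdac1-deficient library, replicate 4, was still 64 counts against at most 24 in control.

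Scg3 encodes secretogranin III, which anchors granin aggregates at the granule membrane (chromosome 9, 75643189 to 75684056, minus strand). Its counts were low in control, at 4, 5, 4 and 2 per library. They were 18, 29, 33 and 23 in Hdac1-deficient and 27, 19, 18 and 17 in Hdac2-deficient libraries. No mutant library reached down to the control counts, while the mutants overlapped each other. The control mean was 0.131 ± 0.0376 CPM (SD, n = 4). Without Hdac1 it was 0.883 ± 0.172 CPM, a log2 fold change of 2.71 (SE 0.32, adjusted p = 3.6e-07). In Hdac2-deficient enteroids it was 0.837 ± 0.123 CPM, a change of 2.62 (SE 0.33, adjusted p = 6.3e-07).

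Scg5 encodes the 7B2 protein, a chaperone of the prohormone convertase PCSK2 (chromosome 2, 113776362 to 113829121, minus strand). In control libraries it stood at 0.837, 1.06, 0.594 and 0.630 CPM, in Hdac1-deficient libraries at 1.95, 1.75, 1.71 and 1.49 CPM, and in Hdac2-deficient libraries at 1.40, 1.21, 1.11 and 1.39 CPM. Both mutants lay above every control library, and every Hdac1-deficient library lay above every Hdac2-deficient library. The change was 1.15 (SE 0.20, adjusted p = 4.6e-05) in Hdac1-deficient and 0.72 (SE 0.22, adjusted p = 0.0076) in Hdac2-deficient enteroids, the latter under 2-fold, and the difference between the mutants missed the threshold (0.42, SE 0.18, adjusted p = 0.060).

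The abundant granin moved little. Chgb, chromogranin B, was the member with the highest level per kilobase, at 61.4 CPM per kilobase of exon in control, the 95.4 percentile of listed genes. Its mean was 168 ± 6.86 CPM (SD, n = 4) for control, 180 ± 9.26 CPM in the Hdac1 mutant and 203 ± 7.05 CPM in the Hdac2 mutant, changes of 0.11 (adjusted p = 0.021) and 0.28 (adjusted p = 4.8e-07). Vgf, the precursor of several neuroendocrine peptides, rose by 0.70 (SE 0.24, adjusted p = 0.017) in Hdac1-deficient enteroids and had a change of 0.06 (SE 0.25, adjusted p = 0.85) in Hdac2-deficient enteroids. The mutants differed in Vgf by 0.64 (SE 0.24, adjusted p = 0.035). Per kilobase, Scg2, Scg3, Scg5 and Vgf lay between 0.302 and 1.24 CPM in Hdac1-deficient enteroids, against 65.7 CPM for Chgb.

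**Figure D3:**
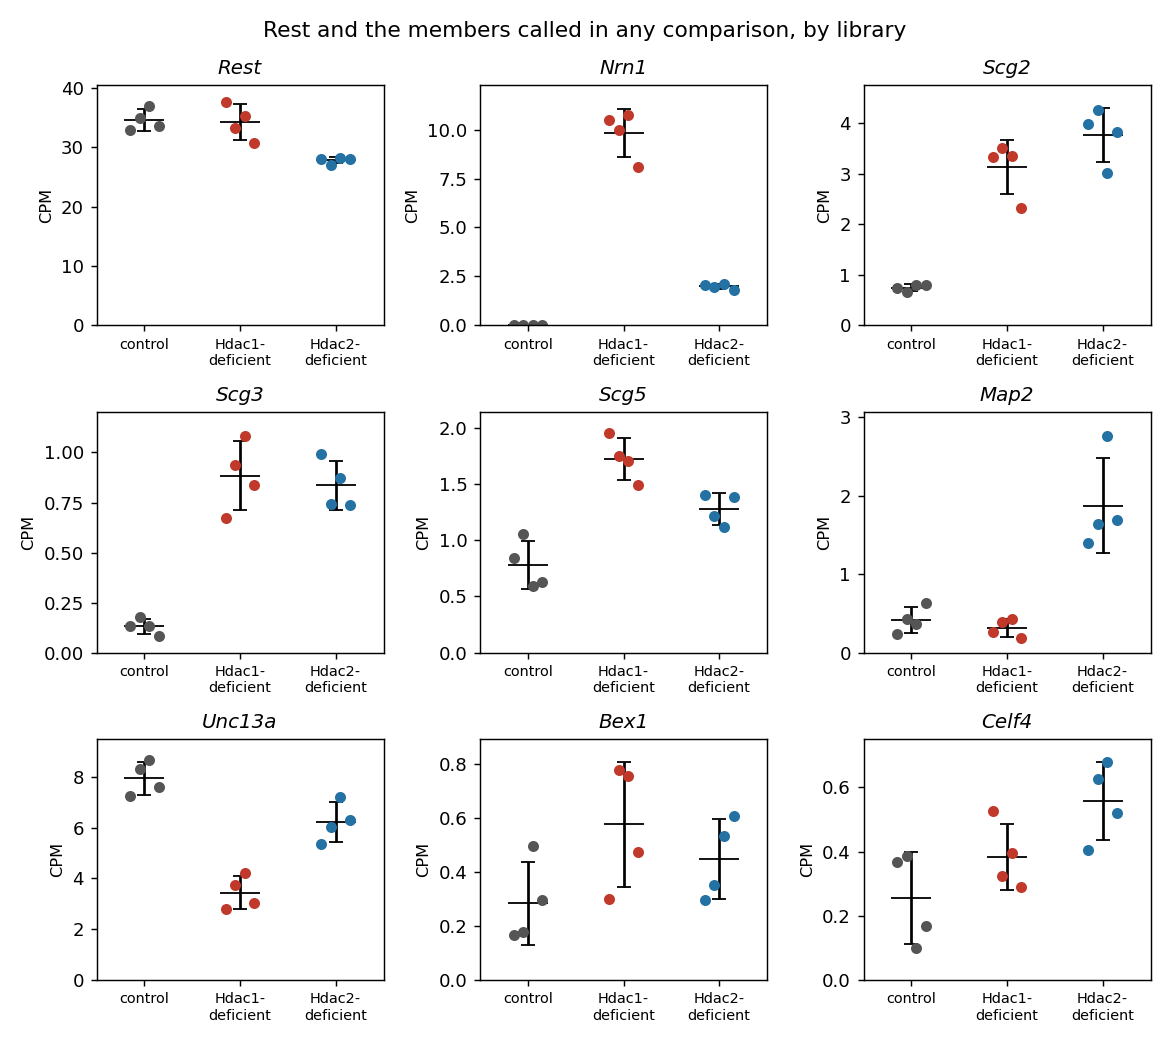
Level of Rest and of the 8 members called in any comparison, in CPM on a linear axis from 0, with 1 point per library (grey control, red Hdac1-deficient, blue Hdac2-deficient), horizontal lines at the group mean and bars of 1 SD (n = 4). Nrn1 is at 0 in all control libraries, Scg2 and Scg3 lie above control in every mutant library, Map2 is high in Hdac2-deficient libraries alone, Unc13a is lowest in Hdac1-deficient libraries, and the groups of Bex1 overlap.

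Among adhesion and surface genes, Nrn1 went from undetected to expressed. It encodes neuritin, a small GPI-anchored protein that promotes neurite growth (chromosome 13, 36725361 to 36735131, minus strand). The 4 control libraries held 0 counts each. The Hdac1-deficient libraries held 280, 308, 327 and 222 counts and the Hdac2-deficient libraries 56, 50, 44 and 42. The 3 groups did not overlap, and Hdac1-deficient libraries held the most. Against 3 counts in the shallowest control library (0.126 CPM), the limit that a count of 0 allows for counting error, the Hdac1-deficient level of Nrn1, 9.82 ± 1.21 CPM (SD, n = 4), was at least 77.9-fold higher and the Hdac2-deficient level, 1.99 ± 0.136 CPM, at least 15.8-fold higher. Its adjusted p was 6.7e-14 and 5.6e-11. Compared directly, the Hdac1-deficient level was 4.93-fold the Hdac2-deficient level (log2 fold change 2.30, SE 0.12, adjusted p = 1.9e-13). In bulk libraries such as these, more cells expressing a gene and more RNA per cell cannot be told apart.

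L1cam, a cell adhesion molecule of axons that lies on the X chromosome, rose from 37.8 ± 4.02 CPM (SD, n = 4) to 49.7 ± 2.76 CPM in the Hdac1 mutant and 53.4 ± 3.10 CPM in the Hdac2 mutant. The changes were 0.41 and 0.50 on the log2 scale (adjusted p = 5.4e-05 and 1.8e-05), with no overlap with control. The part of the Xist difference in this X-linked gene was not tested. Dner, a Notch ligand of neurons, stood at 0.410, 0.348 and 0.237 CPM and did not pass the test in Hdac1-deficient enteroids (-0.25, adjusted p = 0.49). It was not tested in Hdac2-deficient enteroids, and neither was Nrxn2, a presynaptic adhesion receptor, in any comparison.

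The cytoskeleton group held the gene that most separated the mutants in the other direction. Map2 encodes a microtubule-associated protein of dendrites (chromosome 1, 66175273 to 66442583, plus strand). It stood at 0.234, 0.422, 0.363 and 0.630 CPM in control and at 0.262, 0.389, 0.427 and 0.182 CPM in Hdac1-deficient libraries. In Hdac2-deficient libraries it stood at 1.40, 1.64, 2.76 and 1.69 CPM. Control and Hdac1-deficient libraries overlapped, and every Hdac2-deficient library lay above both. The log2 fold change was 2.19 (SE 0.28, adjusted p = 8.9e-07) in Hdac2-deficient and -0.31 (SE 0.36, adjusted p = 0.46) in Hdac1-deficient enteroids. Compared directly, the Map2 level in the Hdac1 mutant was 5.69-fold lower than in the Hdac2 mutant (log2 fold change -2.51, SE 0.29, adjusted p = 6.8e-08).

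Map1b, a microtubule-associated protein of growing axons, stood at the edge of the 2-fold limit. It changed by 1.00 (SE 0.23, adjusted p = 0.00081) in Hdac1-deficient and 0.89 (SE 0.28, adjusted p = 0.0082) in Hdac2-deficient enteroids. Its level was 0.560, 1.11 and 1.04 CPM in control, Hdac1-deficient and Hdac2-deficient enteroids. Nefm, the medium neurofilament subunit, changed by 0.28 (adjusted p = 0.16) and 0.20 (adjusted p = 0.36), and Tubb3, neuronal beta-tubulin, by -0.24 (adjusted p = 0.40) and -0.47 (adjusted p = 0.12). Nefl, the light neurofilament subunit, was too low to be tested, with 0, 2, 2 and 0 counts in control, 5, 9, 10 and 7 in Hdac1-deficient and 5, 7, 5 and 1 in Hdac2-deficient libraries. The Hdac1-deficient libraries of Nefl did not overlap control, and the Hdac2-deficient ones did. Nefl lies within the annotated span of Nefm on the opposite strand, and whether the counting used strand is not given in the sources used here. Ina, another intermediate filament of neurons, was at most 0.291 CPM in any library and was not tested.

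The vesicle release machinery did not move as a block. Of 13 genes, 12 had a row and 8 were tested against control. In Hdac1-deficient enteroids 3 were higher and 3 lower at any size (37.5% each), beside 32.7% and 31.9% of all genes. In Hdac2-deficient enteroids none was higher by edgeR or DESeq2 (1 at an unadjusted p under 0.05), beside 31.4% of all genes. There 4 were lower (50%), beside 30.9% of all genes. Unc13a encodes Munc13-1, which primes vesicles for fusion (chromosome 8, 71624417 to 71671757, minus strand). It stood at 7.23, 8.30, 8.65 and 7.60 CPM in control, at 2.77, 3.76, 4.20 and 3.02 CPM in Hdac1-deficient and at 5.34, 6.01, 7.22 and 6.29 CPM in Hdac2-deficient libraries. The 3 groups did not overlap, with Hdac1-deficient libraries the lowest and control the highest, though the top Hdac2-deficient library, at 7.22 CPM, lay next to the lowest control, at 7.23 CPM.

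The log2 fold change of Unc13a was -1.19 (SE 0.11, adjusted p = 1.9e-08) in Hdac1-deficient and -0.36 (SE 0.10, adjusted p = 0.0028) in Hdac2-deficient enteroids. The difference between the mutants was -0.83 (SE 0.12, adjusted p = 2.7e-06). Of the tested genes of this group, the 3 with the highest mean CPM over all 12 libraries were Vamp2, Cplx2 and Rab3a. In control libraries alone Syt7 and Unc13a stood above Rab3a. Vamp2, the vesicle SNARE synaptobrevin 2, rose by 0.21 (adjusted p = 0.014) in Hdac1-deficient and fell by 0.15 (adjusted p = 0.023) in Hdac2-deficient enteroids, with overlapping libraries in both. Cplx2, the SNARE-binding complexin 2, fell by 0.55 and 0.79 on the log2 scale (adjusted p = 2.2e-05 and 6.3e-08) and did not overlap control. Rab3a, a GTPase of secretory vesicles, rose by 0.52 in Hdac1-deficient enteroids (adjusted p = 2.2e-05) and had a change of 0.05 (adjusted p = 0.64) in Hdac2-deficient enteroids, a difference of 0.46 between the mutants (adjusted p = 0.00013).

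The rest of the release machinery gave small or untested values. Stx1a, a plasma membrane SNARE, changed by 0.41 (adjusted p = 0.0025) and 0.19 (adjusted p = 0.074). Syt7, a calcium sensor of granule release, fell by 0.67 and 0.22 on the log2 scale (adjusted p = 4.1e-06 and 0.029). Syt7 lies on chromosome 19, whose median changes of -0.52 and -0.51 stand beside these values. Cplx1 and Syp did not pass the test in either mutant. The SNARE Snap25 and the vesicle proteins Syn1, Syt1 and Rab3b were not tested against control. They stayed at or below 0.558 CPM in every library listed, and Syt1 was not listed for Hdac2-deficient enteroids. At that level a change of these genes was not detectable at this depth unless it was large. In CPM, the Hdac2-deficient libraries of Rab3b (0.291 to 0.547) and Syn1 (0.0867 to 0.195) lay above every control library. Their summed counts were 42 and 14 there, against 26 and 4 in control.

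Of the RNA-binding members, Celf3 and Celf4, splicing regulators of the CELF family, were tested. Celf3 rose by 0.59 (SE 0.12, adjusted p = 0.00035) in Hdac1-deficient enteroids, from 2.72 ± 0.362 CPM to 4.03 ± 0.448 CPM (SD, n = 4), and had a change of 0.00 (SE 0.13, adjusted p = 0.98) in Hdac2-deficient enteroids. The mutants differed by 0.58 (adjusted p = 0.00039). Celf4 held 11, 11, 3 and 4 counts in control, 14, 10, 12 and 8 in Hdac1-deficient and 11, 16, 14 and 12 in Hdac2-deficient libraries. In CPM, its Hdac2-deficient libraries did not overlap control, and its Hdac1-deficient libraries did. Celf4 was called in Hdac2-deficient enteroids at 1.09 (SE 0.37, adjusted p = 0.015). The call was lost without control replicate 3 (0.80, adjusted p = 0.065), without control replicate 4 (0.95, adjusted p = 0.047) or without Hdac2-deficient replicate 3 (1.00, adjusted p = 0.044). Elavl4, the neuronal HuD protein, was not tested.

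Bex1 and Bex2, small X-linked adaptor proteins of neurons, also had low counts. Bex1 held 5, 5, 15 and 7 counts in control, 8, 24, 23 and 13 in Hdac1-deficient and 8, 9, 11 and 14 in Hdac2-deficient libraries, and the groups overlapped. It was called in Hdac1-deficient enteroids at 1.04 (SE 0.38, adjusted p = 0.021). Leaving out control replicate 1 or 2 or Hdac1-deficient replicate 2 or 3 ended that call, at log2 fold changes of 0.85, 0.87, 0.87 and 0.89 and adjusted p of 0.062, 0.065, 0.074 and 0.072. Bex2 changed by 0.55 (SE 0.26, adjusted p = 0.069) in Hdac1-deficient and 0.99 (SE 0.27, adjusted p = 0.0031) in Hdac2-deficient enteroids. Both genes stand beside the Xist difference between control and mutants, whose part was not tested.

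Of the channel genes, Cacna1a, the pore subunit of P/Q-type calcium channels, fell by 0.34 (adjusted p = 0.00039) in Hdac1-deficient and 0.57 (adjusted p = 1.5e-06) in Hdac2-deficient enteroids, from 12.5 ± 0.853 CPM (SD, n = 4) in control to 9.80 ± 0.586 and 8.36 ± 0.654 CPM, with no overlap. Cacna2d1, an auxiliary calcium channel subunit, changed by 0.13 (adjusted p = 0.53) and 0.06 (adjusted p = 0.81).

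Compared directly, the mutants differed in Nrn1, higher in Hdac1-deficient enteroids, and in Map2, lower there. These were the 2 called among 29 tested members, where 2.74% of all genes were called higher and 2.89% lower. At any size, 8 members were higher in Hdac1-deficient enteroids (Nrn1, Vgf, Celf3, Rab3a, Vamp2, Rest, Cplx2 and Cacna1a) and 4 lower (Map2, Unc13a, Syt7 and Chgb), where 22.3% of all genes were higher and 23.7% lower. The median log2 fold change of the tested members was 0.08, against 0.01 for all genes.

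The other neuronal genes, a further list of 97, were called in both directions. Of these, 61 had a row and 39 were tested in Hdac1-deficient enteroids, with 7 called higher (17.9%) and 6 lower (15.4%), beside 6.87% and 3.71% of all genes. In Hdac2-deficient enteroids 37 were tested, with 5 called higher (13.5%) and 3 lower (8.11%), beside 5.45% and 2.84% of all genes. On the higher side, Resp18, a granule protein of endocrine cells, changed by 2.22 in the Hdac1 mutant and 1.91 in the Hdac2 mutant, and Ptprn, the granule membrane protein IA-2, by 1.83 and 1.79 (adjusted p = 6.8e-07 and 9.4e-07). Sv2c, a synaptic vesicle glycoprotein, was called at 2.40 in Hdac1-deficient enteroids, and Elavl2, an RNA-binding protein of the Hu family, at 1.63 in Hdac2-deficient enteroids.

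On the lower side, Nefh, the heavy neurofilament subunit, changed by -2.57 and -2.40, from 2.55 ± 0.33 CPM (SD, n = 4) in control to 0.422 ± 0.14 and 0.469 ± 0.16 CPM. Eno2, neuron-specific enolase, changed by -2.61 and -1.50. Gad2, a GABA-synthesizing enzyme, was called lower at -2.63 in Hdac1-deficient enteroids, and Rims2, a release-site scaffold, at -2.13 in Hdac2-deficient enteroids. Between the mutants, Gad2 (-2.30), Dpysl3, a growth cone protein (-2.14), Grin1, an NMDA receptor subunit (-1.35), and Eno2 (-1.10) were called lower in the Hdac1 mutant, and Rims2 (1.11), Map1a (1.10) and Sv2c (1.04) were higher. The call of Eno2 between the mutants was lost without Hdac1-deficient replicate 2 (-0.89, adjusted p = 0.0093) or Hdac2-deficient replicate 2 (-0.94, adjusted p = 0.012). The call of Sv2c was lost without control replicate 4 (adjusted p = 0.052), without Hdac1-deficient replicate 2 or 3 (adjusted p = 0.13 and 0.10) or without Hdac2-deficient replicate 2 or 4 (adjusted p = 0.12 and 0.10), with the lowest value 0.78, and at 0.99 with the replicate block.

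Enteroendocrine markers moved beside the granins. Of 37 markers, 35 had a row, and Chgb is on both lists. In Hdac1-deficient enteroids 13 of 33 tested were called higher (39.4%, beside 6.87% of all genes) and none lower, and at any size 21 were higher (63.6%, beside 32.7%) and 3 lower. In Hdac2-deficient enteroids 8 of 31 were called higher (25.8%, beside 5.45% of all genes) and none lower, and at any size 18 were higher (58.1%, beside 31.4%) and 4 lower. DESeq2 also called none lower in either mutant, and at an unadjusted p under 0.05 the lower markers numbered 3 and 4. The summed level of the list ranged from 509 to 528 CPM in control, from 701 to 756 CPM in Hdac1-deficient and from 739 to 795 CPM in Hdac2-deficient libraries. Its part in the changes of the members was not tested.

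Nts and Gcg, both hormone genes, had the largest changes of this list in Hdac1-deficient enteroids. Nts, neurotensin, changed by 3.82 in the Hdac1 mutant and 2.20 in the Hdac2 mutant, and was the 1 marker called between the mutants (1.61). Gcg, proglucagon, rose from 2.01 ± 0.13 CPM (SD, n = 4) to 26.9 ± 3.9 and 15.4 ± 1.4 CPM, changes of 3.76 and 2.95. Slc18a2, a vesicular monoamine transporter, was called at 1.97 in Hdac1-deficient enteroids, and Trpa1, an irritant-sensing channel, at 2.55 in Hdac2-deficient enteroids. Neither is particular to that mutant, since both also held more counts than any control library in the other. Slc18a2 held 7, 4, 4 and 3 counts in control and 16, 8, 8 and 10 in Hdac2-deficient libraries. Trpa1 held 12, 8, 20 and 15 counts in control and 42, 60, 62 and 49 in Hdac1-deficient libraries. The general marker Chga, chromogranin A, stayed near its control level, at 40.8, 44.5 and 35.7 CPM (0.14 and -0.18, adjusted p = 0.0053 and 0.0013). Neurog3, the factor that starts the enteroendocrine lineage, fell by 0.54 and 0.89 on the log2 scale.

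**Figure D4:**
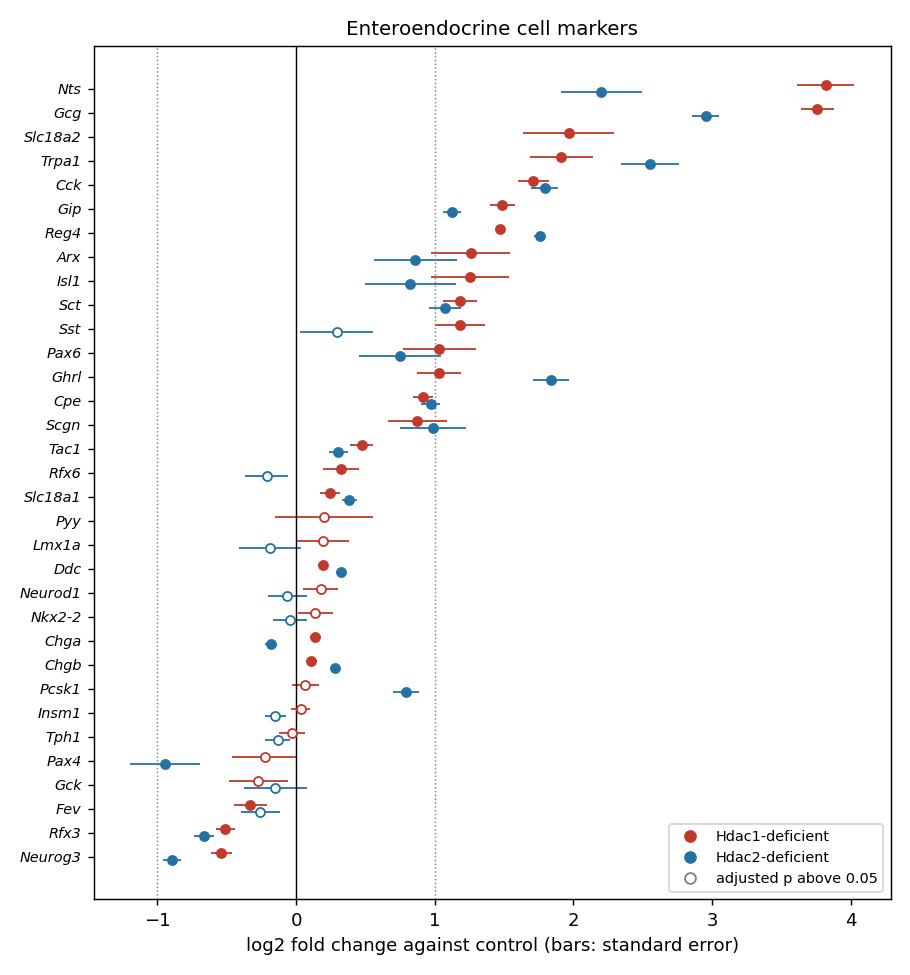
Log2 fold change against control (horizontal axis, bars give the standard error) for the enteroendocrine markers tested in either mutant, red for Hdac1-deficient and blue for Hdac2-deficient enteroids, with open points where the adjusted p was above 0.05 and dotted lines at 2-fold. Nts and Gcg have the largest changes in Hdac1-deficient enteroids, at 3.82 and 3.76, Chga and Chgb lie near zero change, and Neurog3 lies at -0.54 and -0.89.

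Defining markers of enteric neurons and glia were absent or low. Of 20 such markers, 14 have no row in the tables used here, among them Hand2, Sox10, Gfap and Chat. The 6 with a row summed to between 11.4 and 12.7 CPM in control, 5.63 and 7.97 CPM in Hdac1-deficient and 6.59 and 8.07 CPM in Hdac2-deficient libraries, with no overlap between control and either mutant. Most of that sum was Ret, a receptor of the neural crest lineage, at 7.91, 4.76 and 4.73 CPM. S100b, Th and Elavl3 stayed at a group mean of at most 0.208 CPM. The part of these markers in the changes of the members was not tested.

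The other cell type lists gave few calls. Of 17 mesenchyme and immune markers, 9 had a row and 4 were tested in each mutant. Ano1, a chloride channel of interstitial cells of Cajal, was called higher in both mutants (1.93 and 1.85). It was 25% of those tested, beside 6.87% and 5.45% of all genes. The summed level of the 8 listed in both tables ranged from 42.8 to 48.1 CPM in control, from 60.5 to 70.2 CPM in Hdac1-deficient and from 60.9 to 70.7 CPM in Hdac2-deficient libraries. Ano1 carried that rise, from 9.15 CPM in control to 34.7 and 32.8 CPM, while Kit, a receptor that also marks interstitial cells of Cajal and most of the sum in control, fell from 33.6 to 27.7 and 27.9 CPM (-0.27 and -0.26, adjusted p = 0.00029 and 0.00017). Of 15 tuft cell markers, 12 had a row. The 10 tested in Hdac1-deficient enteroids had a median log2 fold change of 0.31, and the 9 tested in Hdac2-deficient enteroids one of -0.40. Il17rb was called higher there (1.05), while Trpm5, a cation channel of tuft cells (-0.90, adjusted p = 6.8e-05), and Pou2f3, the tuft cell factor (-0.63, adjusted p = 0.002), fell by less than 2-fold. Pou2f3 was called higher in the Hdac1 than in the Hdac2 mutant (1.01). Of the epithelial markers, Sis, the brush border sucrase-isomaltase, was called higher in Hdac1-deficient enteroids (1.03) and Olfm4, a crypt stem cell marker, lower in Hdac2-deficient enteroids (-1.23). None of the 18 was called between the mutants. Sis held 81118 to 115543 counts in Hdac2-deficient and 67052 to 83703 in control libraries. Olfm4 held 38632 to 51147 counts in Hdac1-deficient and 64418 to 84958 in control libraries. The calls of Sis (0.98 without control replicate 1, 1.00 without Hdac1-deficient replicate 1 and 0.96 without replicate 4) and Il17rb (0.97 without Hdac2-deficient replicate 4) were lost with 1 library left out. That of Pou2f3 was lost without Hdac1-deficient replicate 1, 2 or 3 (1.00, 0.90 and 0.94) or Hdac2-deficient replicate 1 or 3 (0.95 and 0.98). The parts of these changes in the values of the neuronal members were not tested.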

How the data were processed

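Total RNA from enteroids was enriched for poly(A) RNA, made into directional libraries and sequenced as paired reads, and the authors aligned these to GRCm38 with STAR (2.4.0f1 in the submitters' processing notes). The authors deposited counts of reads per gene, 1 table per mutant with the same 4 control libraries. The counting program is not given in the sources used here. Columns of scaled counts and of the authors' own fold changes and p-values were not used. Libraries were grouped by genotype from their labels. The members and gene lists were chosen with earlier results of these data known, and 7 members had no row.

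Counts were tested with edgeR 4.0.16 in R 4.3.3 (quasi-likelihood test, robust dispersions, TMM scaling, filterByExpr) and Benjamini-Hochberg adjustment over all tested genes (14246 for Hdac1-deficient, 14007 for Hdac2-deficient against control, each in 8 libraries, and 14510 between the mutants in 12). SE is the size of the log2 fold change over the square root of its F statistic. CPM use TMM factors from 0.981 to 1.02. The common biological coefficient of variation was 0.0425, 0.0384 and 0.0394 in that order. Gene positions and exon lengths came from GENCODE M21, and promoter windows from RefSeq on GRCm38.p6. The fit was tested on simulated data. Values per library were given for Rest and each called member, up to 3 examples by mean CPM per other group, and up to 3 called genes by size per other list, direction and comparison, with Chga and markers of enteric neurons and glia. A marker of the last list is not reported here by name. Rcor1, Kdm1a, Kdm5c, Srrm4, Neurog3, Nefl and the remaining named genes outside this rule were chosen after their values were seen. Alternatives were DESeq2 1.42.0, other scalings, filters and thresholds, the replicate number as a block, other libraries in the fit, and leaving out each library.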

Additional observations from a re-analysis of the deposited data

Results flagged for a closer look

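In 6 of 103 groups of 4 libraries tested among the members, 1 library stood apart from the other 3 by Dixon's criterion, which chance gives in about 1 in 20 groups. Scg2 stood at 2.33 CPM in Hdac1-deficient replicate 4, against 3.34 to 3.50 CPM in the other 3. Cplx2 stood at 5.82 CPM in the same library, against 7.35 to 7.49 CPM. Syt7 stood at 5.88 CPM in Hdac1-deficient replicate 3, against 4.54 to 4.76 CPM. Map1b stood at 1.56 CPM in Hdac2-deficient replicate 4, against 0.847 to 0.898 CPM, on 36 counts. Vamp2 stood at 25.6 CPM in Hdac2-deficient replicate 3, against 23.6 to 23.9 CPM. Stx1a stood at 5.75 CPM in control replicate 3, against 5.04 to 5.16 CPM.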

How the results depend on the processing

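For the 9 genes given per library, 425 values were taken under other tools, scalings, filters, blocks and library sets. None reversed a called change. Changes that were not called could switch sign, as Rest did in Hdac1-deficient enteroids (-0.05 to 0.04 with 1 library left out). Of the 425 values, 418 kept their side of the threshold. The 7 that lost it were Bex1 and Celf4 with 1 library left out, as given above. At an adjusted p of at most 0.01, which is not among those values, Bex1 in Hdac1-deficient and Celf4 in Hdac2-deficient enteroids were no longer called, for 4 members higher in each mutant. Leaving out each library in turn gave 4 to 6 members called higher and always 1 lower in Hdac1-deficient enteroids, 5 to 6 higher and always 0 lower in Hdac2-deficient enteroids, and 1 higher and 1 lower between the mutants. With no limit on the fold change, the counts were 13 higher and 4 lower in the Hdac1 mutant, 10 and 6 in the Hdac2 mutant, and 8 and 4 between the mutants, by the construction of that rule, Rest, Scg5 and Unc13a in Hdac2-deficient enteroids among those added. DESeq2, the RLE scaling, a minimum mean count and the replicate block each added Map1b to the Hdac1-deficient calls, for a count of 6, and DESeq2 added Bex2 to those of Hdac2-deficient enteroids. Without the filter on low counts, Nefl and Elavl4 joined the Hdac1-deficient calls and Nefl and Syn1 the Hdac2-deficient calls, for 7 in each. The same setting moved the counts over all genes called higher from 979 to 1581 (Hdac1-deficient) and from 764 to 1170 (Hdac2-deficient), lower from 398 to 622 (Hdac2-deficient), and other neuronal genes called higher from 5 to 12 (Hdac2-deficient).

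No source says that same-numbered libraries belong together, and the correlations of their deviations ran from -0.05 to 0.09 in 12 pairs. Each of 12 searches compared 1 library with the libraries of another group, and in 6 the closest carried the same number. With the replicate block, 6 members were called higher and 1 lower in Hdac1-deficient enteroids, 5 and 0 in Hdac2-deficient enteroids. Depth limits the members with under about 10 counts per library, and 1 mouse per genotype limits every comparison.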
